A study of Homo sapiens with 2 samples.

Results

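The vesicle fusion and degranulation machinery was described here as 39 named genes in 2 subclones of HMC1, an established human cell line that grew out of a mast cell leukaemia. The members were taken as a fixed list of gene names. A probe set counted where the platform annotation gave it to exactly 1 member under a current or former symbol, and the brightest probe set of a gene, by the mean of its log2 values on both arrays, stood for the gene. All 39 members were found, with 116 probe sets, among 19752 genes on the array. The cells had been sorted with an antibody against CD2, an adhesion receptor, into a subclone with CD2 on its surface and a subclone without it, and no treatment is named in the labels. Total RNA of each subclone was hybridised to 1 Affymetrix U133 Plus 2.0 array, so each group held 1 sample from 1 sorted subclone. There is therefore no spread between replicates, no test and no p-value, and each difference compares these 2 arrays, not CD2-positive with CD2-negative cells in general.

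Mast cells store histamine, proteases and cytokines in secretory granules and release them when granules fuse with the plasma membrane. Fusion is driven by SNARE proteins, which sit on both membranes and zip together into a bundle of helices. An R-SNARE on the vesicle pairs with Qa, Qb and Qc SNAREs on the target membrane, Sec1/Munc18 proteins guide the pairing, and the ATPase NSF with its SNAP adaptors takes the spent bundles apart. Rab GTPases and their effectors bring vesicles to the right membrane beforehand. In mast cells STX4, SNAP23 and VAMP8 are known parts of the bundle that serves granule release.

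Both arrays reported 54675 probe sets with a median intensity of 4, and summed intensities of 1860969 (CD2-positive) and 1875750 (CD2-negative). Probe sets for Bacillus genes, a measure of background in human RNA, read 1 to 4. CD2 itself read 219 on the CD2-positive and 13 on the CD2-negative array. Of 12 mast cell markers, 9 read 64 or more on at least 1 array. All 9 were higher on the CD2-positive array, as were 1494 of all 3564 genes reaching 64. KIT, GATA2 and SRGN among them differed by less than 1.2-fold, and the SRGN probe sets reaching 64 differed in sign. CMA1, the chymase gene, read 2 on both arrays. Summed over the 11 of these markers with a probe set of their own, intensities were 16091 against 11095. The largest gaps in intensity were those of TPSAB1 (4806 against 3142), TPSB2 (4415 against 2929) and CPA3 (1220 against 207). By fold, CPA3 (5.89-fold) and HPGDS (187 against 80, 2.34-fold) were furthest apart among those reaching 64, and TPSAB1 differed 1.53-fold. FCER1A, which did not reach 64, read 27 against 8. No marker of T and NK cells, B cells, monocytes or neurons reached 64, and of the erythroid and megakaryocyte markers only ITGA2B did (88 and 106). The 18 probe sets for hybridisation controls all had negative log2 differences (CD2-positive minus CD2-negative, median -0.18), and their part in the differences below was not tested.

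A gene was compared where its brighter array reached 64, a log2 value of 6, called the floor here. Of the 39 members 20 lay above the floor, 18 lay below it but above the Bacillus level of 4, and 1, CPLX2, lay at that level on both arrays. Close to the floor, STX16 (67 and 68) was inside, and VAMP4 (54 and 63) and RAB27A (60 on both arrays) were outside. Every difference is a log2 value, positive where the CD2-positive array was brighter, and paired readings give the CD2-positive array first. In RNA of many cells, fewer cells with a transcript and less of it per cell cannot be told apart. Where a gene had 2 probe sets above the floor, as 937 genes did, the standard deviation of the gap between the differences of the brightest pair, divided by the square root of 2, was 0.13. This covers probe behaviour on the same RNA only, not variation between cultures. It is 1 standard deviation and not a limit for calling genes, so a gene outside it was not called different.

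**Figure D1:**
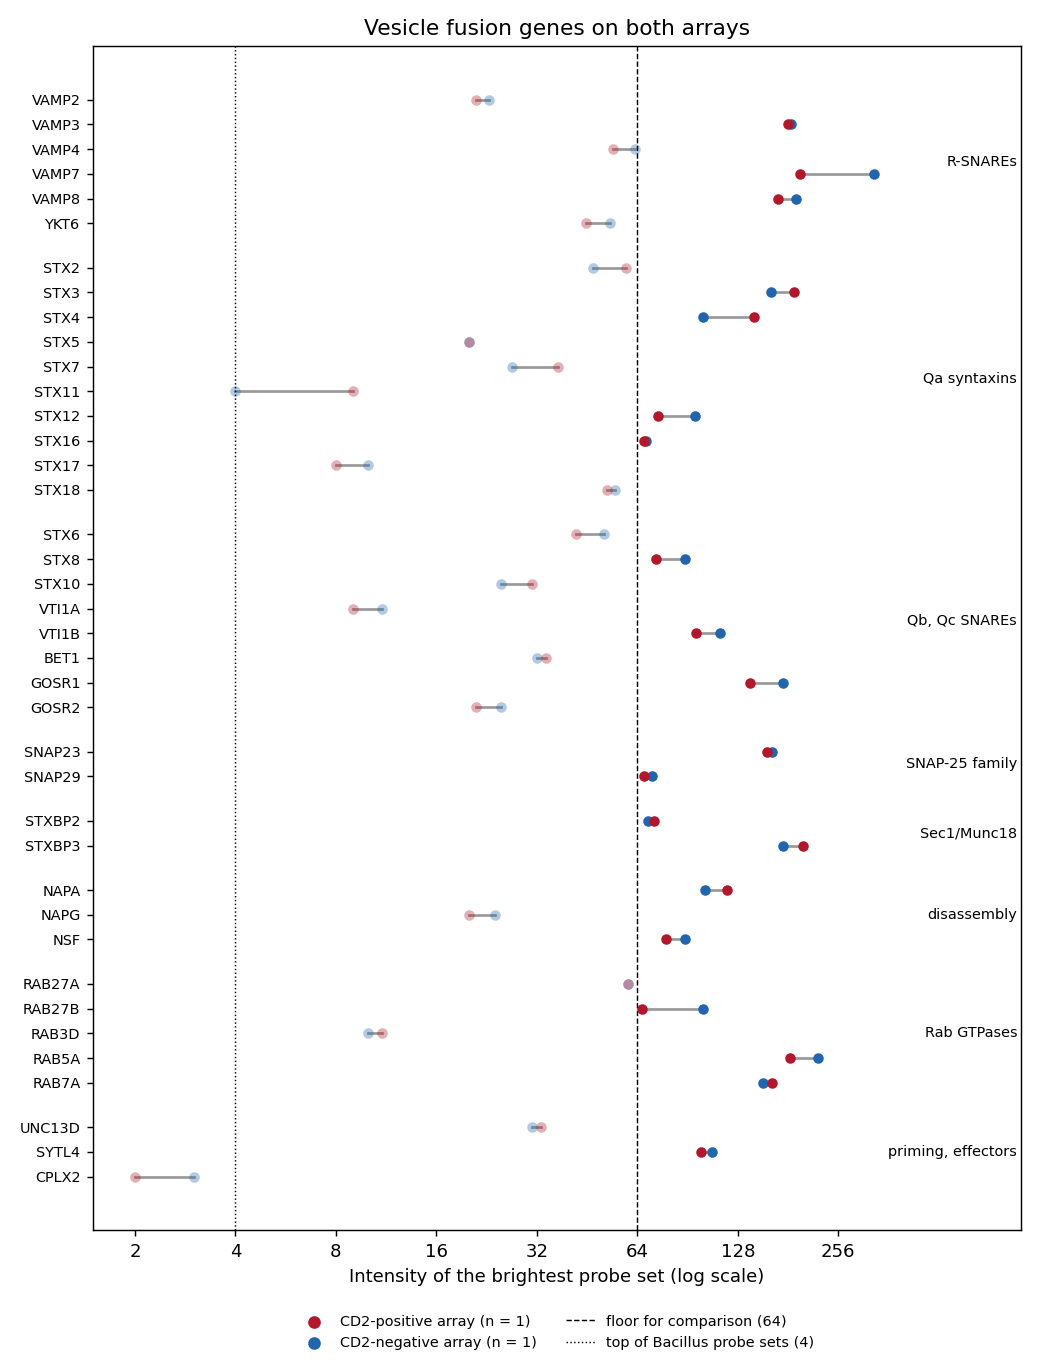
Intensity (log scale) of the brightest probe set of each of the 39 members, grouped by role, on the CD2-positive (red) and the CD2-negative array (blue), with members below the floor of 64 drawn pale. Within most members the red and blue points lie close together, and the longest gaps above the floor are those of VAMP7 (197 and 327), RAB27B (66 and 101) and STX4 (143 and 101).

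None of the 20 members above the floor differed by 2-fold, a size reached by 1.96% of all 3564 genes compared. No member was at least 1.5-fold higher on the CD2-positive array, where 4.29% of all genes were, and 2 members, VAMP7 and RAB27B, were at least 1.5-fold lower, where 3.82% of all genes were. Among 20 members, 1 gene more or less moves such a share by 5 percentage points. Differences under 1.2-fold were measured for 13 members (65% of 20) and for 63.2% of all genes compared, a share near the background. The 19 members below the floor enter none of these counts. The members' median difference was -0.10 against -0.05 over all genes, with 6 positive and 14 negative members (70% negative, against 55.7% of all genes). Centred on the hybridisation controls the median turned to 0.084, against 0.14 over all genes, and the split to 12 positive and 8 negative. The share of all genes positive was not counted with this centring. It moves every gene by the same amount, so the sign of the members' median depends on the scaling. Their place below the median of all genes does not change with it. The members ranged from -0.73 to 0.50. VAMP7 alone lay outside the middle 95% of all genes, which ran from -0.68 to 0.70.

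**Figure D2:**
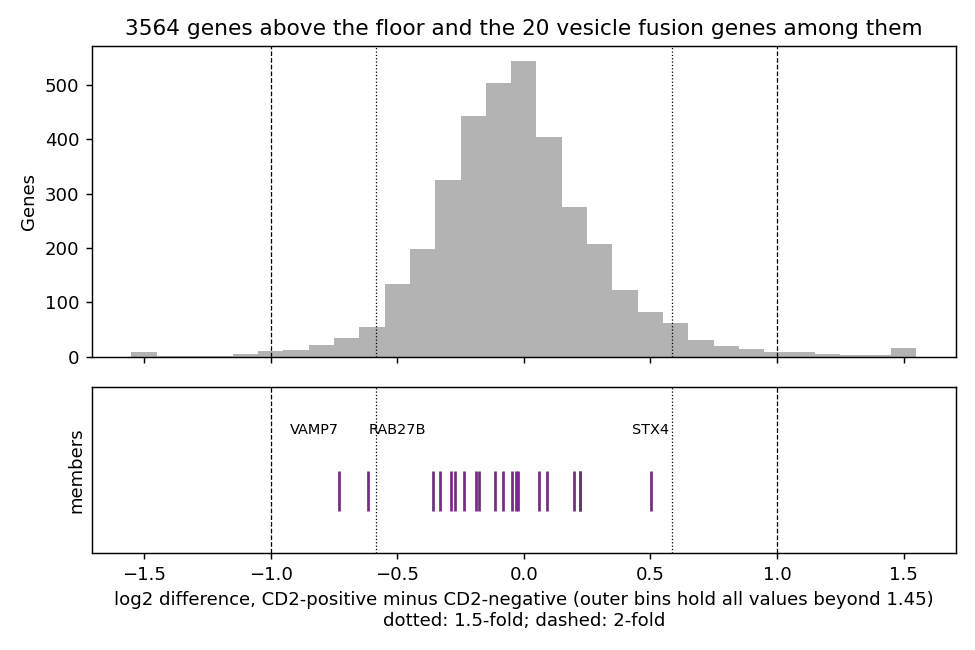
Top, number of genes per 0.1 of log2 difference (CD2-positive minus CD2-negative) for the 3564 genes above the floor. Bottom, each of the 20 members above the floor as 1 tick; dotted lines mark 1.5-fold and dashed lines 2-fold. The members spread over the body of the distribution, with VAMP7 and RAB27B beyond the 1.5-fold line and none beyond 2-fold.

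R-SNAREs, the vesicle partners, had 6 members and 3 above the floor, all 3 lower on the CD2-positive array as deposited (median -0.18), but only VAMP7 so with the hybridisation controls set to 0 (median 0.0057). VAMP7, an R-SNARE of late endosomes, lysosomes and secretory lysosomes, read 197 on the CD2-positive and 327 on the CD2-negative array, which is 1.66-fold lower (-0.73). Only 1.99% of all genes compared had a more negative difference. It had 1 probe set on the array, so no other reading checks the value, and centred on the hybridisation controls it was -0.55, under 1.5-fold. VAMP8, which serves granule fusion in mast cells, read 169 and 191 (-0.18), 0.0057 when centred in that way. VAMP3, an R-SNARE of recycling endosomes, read 181 and 185, and its 3 probe sets gave -0.10, -0.03 and 0.10. Its difference was 0.15 with the controls set to 0 and 0.015 after a lowess correction on mean level. VAMP8 thus lay slightly further from 0 than the probe-set spread of 0.13 and VAMP3 within it.

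Below the floor, VAMP4, an R-SNARE of the trans-Golgi network, read 54 and 63 (-0.22). Its 2 dimmer probe sets read 15 and 24, and 7 and 11, so all 3 were lower on the CD2-positive array. VAMP2, the classical R-SNARE of synaptic vesicles that is also found on mast cell granules, read 21 and 23, with 1 of 3 probe sets higher, 1 lower and 1 equal. YKT6, a lipid-anchored R-SNARE of Golgi and autophagosome traffic, read 45 and 53 (-0.24), with -0.25 for its other probe set. VAMP2 had no common direction over its probe sets, while those of VAMP4 and YKT6 all read lower.

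Syntaxins of the Qa class, which sit on the target membrane, went both ways. Of 10 members 4 were above the floor, 2 positive and 2 negative. STX4, the plasma membrane syntaxin of regulated secretion, had the most positive difference of the machinery above the floor. It read 143 on the CD2-positive and 101 on the CD2-negative array, 1.42-fold higher (0.50), and its dimmer probe set read 15 and 11 (0.45). A more positive difference was found for 5.75% of all genes compared. Centred on the hybridisation controls, which moves all genes alike, STX4 was at 0.68, past 1.5-fold. The share of all genes past that size was not counted with this centring. STX3, another plasma membrane and granule syntaxin, read 188 and 161 (0.22), with its 3 probe sets from 0.22 to 0.45, all higher on the CD2-positive array. On the endosomal side, STX12 read 74 and 95 (-0.36), but its dimmer probe set read 36 and 37 (-0.04). STX16, a syntaxin of the trans-Golgi network, read 67 and 68, and its 4 probe sets lay between -0.18 and 0.05. Every probe set of STX3 and STX4 was brighter on the CD2-positive array, and both of STX12 were dimmer.

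Among the 6 dimmer Qa syntaxins, STX2, found on the plasma membrane, read 59 and 47 (0.33), while its other probe set read 6 on both arrays. STX7, a syntaxin of late endosomes, read 37 and 27 (0.45), with 0.44 for the second of its brighter probe sets. STX11, a syntaxin of cytotoxic granule release that is mutated in a familial form of haemophagocytic lymphohistiocytosis, read 9 and 4, 2.25-fold apart, and its other probe set read 6 and 3. These readings are close to the Bacillus level of 4, and rounding to whole numbers alone allows a log2 difference from 0.92 to 1.44. STX5 of the early Golgi read 20 on both arrays, and STX18 of the endoplasmic reticulum read 52 and 55. STX17, which serves the fusion of autophagosomes with lysosomes, read 8 and 10. Of these dim syntaxins STX7 stood furthest from 0 at readings well above the Bacillus level.

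**Figure D3:**
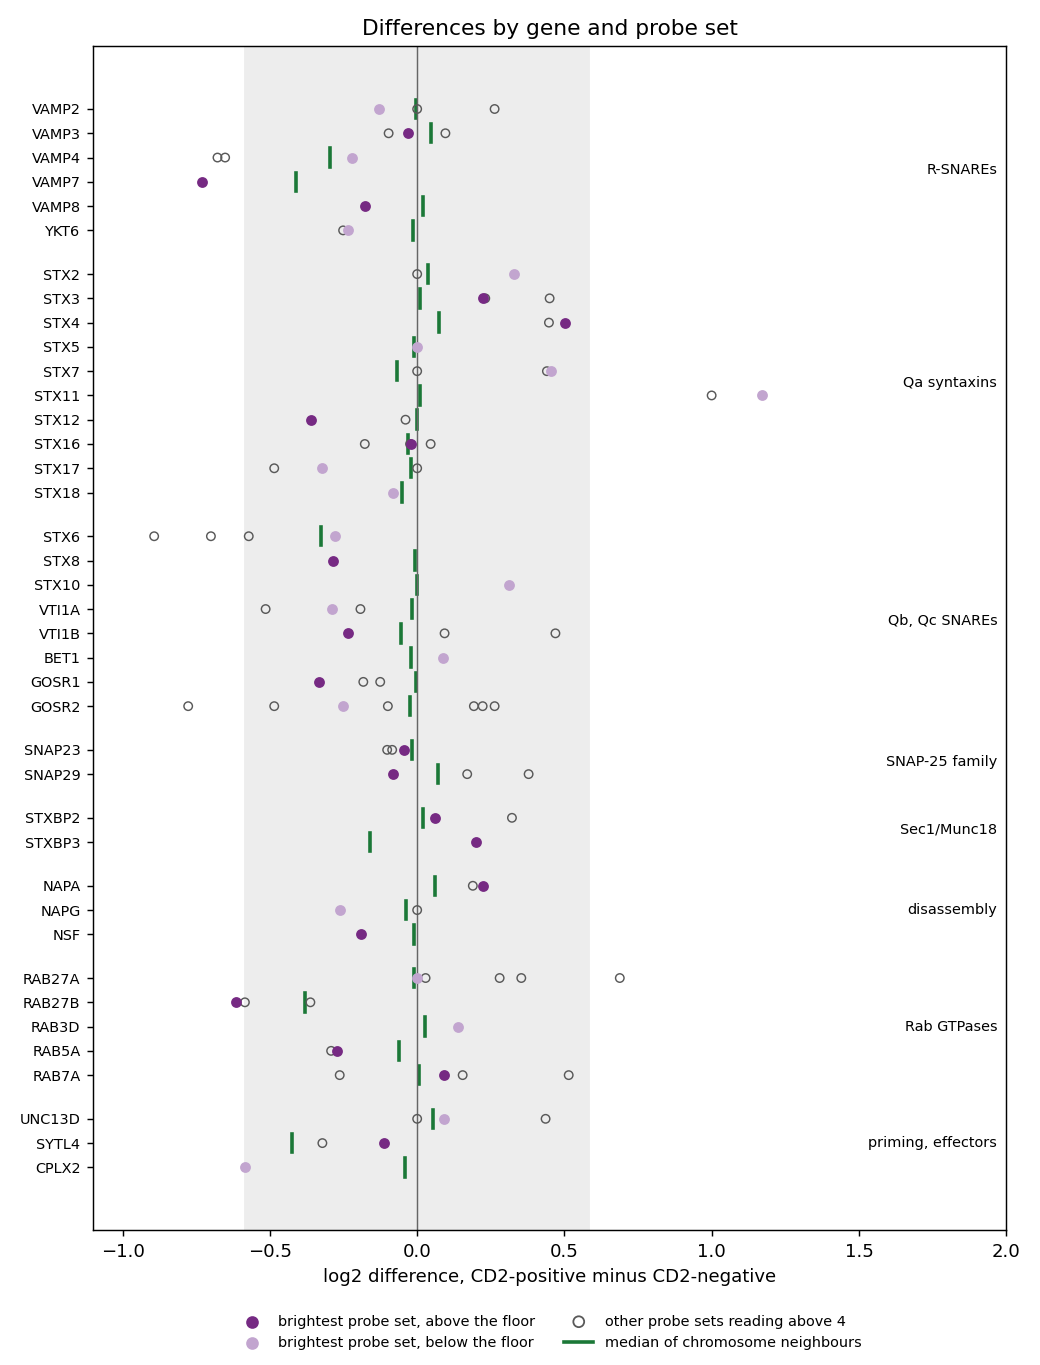
Log2 difference (CD2-positive minus CD2-negative) of each member's brightest probe set (filled, pale below the floor), of its other probe sets reading above 4 (open circles) and the median of its chromosome neighbours (green bars), with the grey band within 1.5-fold. VAMP7 and RAB27B lie left of the band among filled dark points, the probe sets of STX6 and VAMP4 all lie left of 0, and those of STX3 and STX4 all lie right of 0.

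The stretches before the start of STX4 and of 4 other members are shown because they share a sequence word, CACGTG, the E-box bound by the MITF and MYC families of transcription factors and by USF proteins. MITF, the master regulator of mast cell genes, read 276 on the CD2-positive and 154 on the CD2-negative array. Promoters were RefSeq windows of 300 bases (250 before to 50 after each annotated start, GRCh38.p14), found for 37 of 39 members. CACGTG, which reads the same on both strands, occurred in 9 of these 37 genes (24.3%) and in 8.79% of all 27195 genes with a window. Among genes above the floor it occurred in 5 of 20 members (25%) and in 14.4% of 3046 genes with a window. Capitals mark the word, and each line runs 5′ to 3′ on the strand of its gene.
STX4: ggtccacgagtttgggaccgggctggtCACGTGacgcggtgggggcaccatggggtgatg
RAB5A: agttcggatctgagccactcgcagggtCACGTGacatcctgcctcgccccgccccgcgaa
NAPA: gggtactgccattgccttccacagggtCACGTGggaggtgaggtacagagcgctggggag
SNAP29: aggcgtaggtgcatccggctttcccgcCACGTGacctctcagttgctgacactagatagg
STXBP2: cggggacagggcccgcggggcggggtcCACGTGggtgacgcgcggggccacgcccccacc
These lie at chr16:31033269-31033328 on the plus strand for STX4, chr3:19946949-19947008 on the plus strand for RAB5A, chr19:47515245-47515304 on the minus strand for NAPA, chr22:20858796-20858855 on the plus strand for SNAP29 and chr19:7637048-7637107 on the plus strand for STXBP2. The word begins 195 bases before the annotated start in STX4, 121 in RAB5A, 214 in NAPA, 184 in SNAP29 and 35 in STXBP2, and NAPA holds another copy 25 bases before its start. In STX4 and RAB5A the word lies inside GTCACGTGAC, the palindrome known from promoters of lysosomal genes. This stretch was read off the STX4 window itself, so its match in STX4 was fixed in advance. It occurred in 2 of the 37 members and in 0.42% of all genes with a window. Its share among genes above the floor was not counted. GOSR2, STX2, STX6 and STX18, all below the floor, hold CACGTG as well.

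The 5 members above the floor with the word did not share a direction. STX4, NAPA and STXBP2 were positive and RAB5A and SNAP29 negative, with a median of 0.06. The 15 without the word had a median of -0.18 with 3 positive and 12 negative. Those 15 include VAMP7, RAB27B and SYTL4, whose chromosome neighbours had median differences of -0.41, -0.38 and -0.42. The same split was not made over all genes compared, and a link of the word with direction was not tested. STX4 (0.50) and RAB5A (-0.27), which hold the same palindrome, differed in sign. These are matches of letters in a window, and binding was not measured. Of the factors known to bind the word, TFE3 read 88 and 106, MYC 72 and 75, MAX 255 and 207, and USF2 78 and 72. Below the floor lay TFEB (13 and 12), USF1 (5 on both arrays) and TFEC (2 on both). Apart from MITF (1.79-fold higher) these factors differed by less than 1.5-fold.

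Qb and Qc SNAREs, which add further helices to the bundle, had 8 members. The 3 above the floor were all negative within a narrow range, -0.33 to -0.24. GOSR1, a Golgi SNARE, read 139 and 175 (-0.33), and its dimmer probe sets gave -0.18 and -0.13. STX8, a late endosomal SNARE, read 73 and 89 (-0.29). VTI1B, its endosomal partner, read 96 and 113 (-0.24). Its 2 dimmer probe sets, far below the floor, read 16 and 15 (0.09) and 18 and 13 (0.47). The VTI1B probe sets thus did not share a direction. Centred on the hybridisation controls the 3 lay at -0.15, -0.10 and -0.05.

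STX6, a Qc SNARE of the trans-Golgi network and endosomes, was below the floor in all of its probe sets. The brightest read 42 and 51 (-0.28), and the next ones read 37 and 55, 16 and 26, and 14 and 26. These 4 probe sets were all lower on the CD2-positive array, by up to 1.86-fold. Another SNARE of the trans-Golgi network, STX10, read 31 and 25 (0.31) with its only probe set. VTI1A, which works at the trans-Golgi network, read 9 and 11, and BET1 of the early Golgi read 34 and 32. GOSR2, another Golgi SNARE, read 21 and 25, and of its 7 probe sets above the Bacillus level 3 were higher and 4 lower, from -0.78 to 0.26. STX6 was the one among these dim members whose probe sets agreed in sign and included differences past 1.5-fold.

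The SNAP-25 family supplies 2 helices of the bundle at once, and both of its members were above the floor and close to equal. SNAP23, the family's main form at the mast cell plasma membrane, read 157 and 162 (-0.05), with its 3 probe sets between -0.10 and -0.05. SNAP29, which serves endosomal and autophagosome fusion, read 67 and 71 (-0.08). Its dimmer probe sets read 9 and 8 (0.17) and 13 and 10 (0.38), far below the floor. With the brightest probe set both genes lay within the probe-set spread. The dimmer ones of SNAP29 had the opposite sign, but the spread was taken above the floor and gives no measure for them. The mast cell bundle named above thus read STX4 1.42-fold higher, SNAP23 1.03-fold lower and VAMP8 1.13-fold lower on the CD2-positive array. Centred on the hybridisation controls they lay at 0.68, 0.14 and 0.0057, so the signs of SNAP23 and VAMP8 depend on the scaling.

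Sec1/Munc18 proteins bind syntaxins and steer bundle assembly, and both members were slightly positive. STXBP3, a partner of STX4, read 201 and 175 (0.20). STXBP2, a partner of STX3 and STX11 in mast cells and cytotoxic lymphocytes, read 72 and 69 (0.06), with 15 and 12 for its other probe set. STXBP3 lay outside the probe-set spread of 0.13 and STXBP2 within it.

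The disassembly machinery went both ways. NSF, the ATPase, read 78 and 89 (-0.19), and NAPA, which encodes the adaptor alpha-SNAP, read 119 and 102 (0.22), with 57 and 50 for its other probe set. NAPG, which encodes gamma-SNAP, was below the floor at 20 and 24, and its other probe set read 17 on both arrays. With the hybridisation controls set to 0, NSF lay at -0.01.

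Among Rab GTPases, RAB27B was lower on the CD2-positive array and its close relative RAB27A was not. Both proteins are known to bring secretory granules to the plasma membrane. RAB27B read 66 on the CD2-positive and 101 on the CD2-negative array, 1.53-fold lower (-0.61), and 3.31% of all genes compared had a more negative difference. Its dimmer probe sets read 10 and 15, and 7 and 9, so all 3 were lower on the CD2-positive array. RAB27A read 60 on both arrays with its brightest probe set, just under the floor. Its other 4 probe sets read 51 and 50 (0.03), 46 and 36 (0.35), 29 and 18 (0.69), and 17 and 14 (0.28). All of these were below the floor and higher on the CD2-positive array. Of the 8 probe sets of the pair none of RAB27A was lower and none of RAB27B higher. They read the same RNA, and only the brightest of RAB27B was above the floor. All probe sets of RAB27A have identifiers ending in _s_at or _x_at, so plain identifiers gave RAB27A no value. Centred on the hybridisation controls RAB27B was at -0.43, under 1.5-fold.

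The remaining Rabs were closer to equal. RAB5A of early endosomes read 184 and 222 (-0.27), with 49 and 60 for its other probe set above the Bacillus level (-0.29). RAB7A of late endosomes and lysosomes read 162 and 152 (0.09), with 128 and 115 for the next (0.15). RAB3D, known from secretory granules, was dim at 11 and 10. The RAB5A probe sets agreed at about 1.2-fold, and RAB7A lay within the probe-set spread of 0 with its brightest probe set.

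Priming factors and effectors prepare docked granules. SYTL4, which encodes the Rab27 effector granuphilin, read 99 and 107 (-0.11). UNC13D, a priming factor that is mutated in another familial form of haemophagocytic lymphohistiocytosis, was below the floor at 33 and 31, and its second probe set read 23 and 17. CPLX2, which encodes complexin, a clamp and activator of SNARE bundles, read 2 and 3 with both of its probe sets, at the Bacillus level. The fold of CPLX2 between such readings is set by rounding, which alone allows a log2 difference from -1.22 to 0.

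VAMP7 and RAB27B, the members past 1.5-fold, and also STX6, VAMP4 and SYTL4 lay in stretches of chromosome whose other genes were mostly lower on the CD2-positive array too. For each gene the median difference of up to 20 compared genes on each side was taken, in the gene order of RefSeq for GRCh38.p14. Over 3557 compared genes with a place in that order these neighbour medians had a median of -0.03, and the middle 80% lay between -0.24 and 0.05. The neighbours of VAMP7, near the end of chromosome X, had a median of -0.41, and 20 of 21 were negative. Those of RAB27B on chromosome 18 had a median of -0.38, with 27 of 34 negative. Those of STX6 and VAMP4 on chromosome 1 had medians of -0.33 and -0.30, with 37 and 33 of 40 negative. SYTL4 on chromosome X also had such neighbours (median -0.42, 36 of 40 negative) and was itself at -0.11. No other member had a neighbour median under -0.25, a limit chosen after the values were seen, which 9.5% of compared genes fell under.

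Set against their neighbours, VAMP7 and RAB27B stood less far out, while the median of the 20 members above the floor went from -0.10 to -0.12. The median of all genes compared, treated alike, went from -0.05 to 0.0003. VAMP7 was 0.32 below its neighbours' median, with 2 of 21 neighbours more negative, and RAB27B was 0.23 below, with 5 of 34 more negative. Neither was then past 1.5-fold. STX6 and VAMP4 lay 0.05 and 0.07 above their neighbours' medians with the brightest probe set, and SYTL4 lay 0.31 above. STX4 on chromosome 16, whose neighbours had a median of 0.07, stayed 0.43 above it, with 3 of 40 neighbours more positive. STX12 and GOSR1 (-0.36 and -0.33) had neighbour medians of 0.00 and -0.0026, and STX8 (-0.29) had one of -0.0076, so these negative differences were about as large against their neighbours. The 17 members above the floor outside the shifted stretches had a median of -0.05 and ranged from -0.36 to 0.50. All compared genes outside such stretches had a median of -0.02. The part of the shifted stretches in the differences of VAMP7, RAB27B, STX6 and VAMP4 was not tested.

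**Figure D4:**
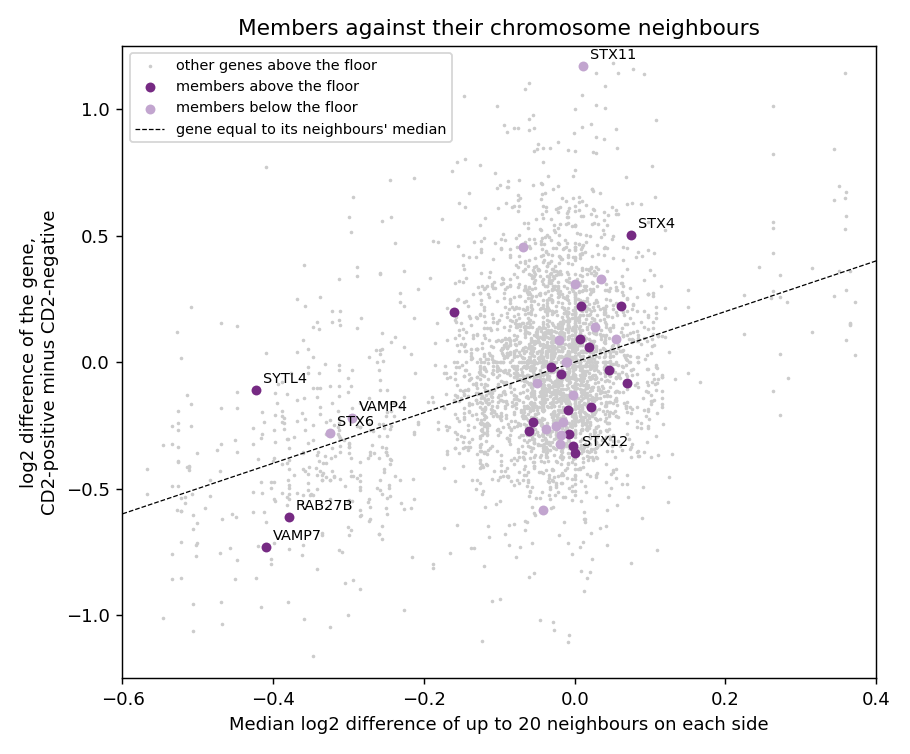
Log2 difference of each gene (vertical) against the median log2 difference of up to 20 compared neighbours on each side (horizontal), for members above the floor (dark), members below it (pale) and other compared genes (grey), with 41 genes beyond 1.2 outside the plot. VAMP7, RAB27B, STX6, VAMP4 and SYTL4 lie at neighbour medians from -0.42 to -0.30, and STX4 lies at 0.07.

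Other genes of vesicle traffic, in 8 lists of 93 measured genes, held no member past 1.5-fold among the 27 above the floor. Over all genes compared, 4.29% were past it in the higher and 3.82% in the lower direction. Of the 27, 13 were positive and 14 negative (51.9% negative, against 55.7% of all genes), with a median of -0.03 and a range from -0.37 to 0.43. In the list of other SNAREs, SEC22C, a SNARE of the early secretory pathway, was furthest from 0 at 158 and 117 (0.43), and the neuronal SNAP25 read 3 and 4. Of the exocyst, which tethers vesicles at the plasma membrane, 5 of 9 genes were above the floor, led by EXOC7 (67 and 57, 0.23). VPS8 (67 and 54, 0.31) was the only endosomal tether gene above the floor, and STXBP5, which encodes tomosyn, the only further syntaxin-binding gene (201 and 200). Of synaptotagmins and other calcium sensors only the extended synaptotagmins ESYT1 (191 and 177, 0.11) and ESYT2 (139 and 143) were above the floor, and none of the Rab27 effectors and other priming factors was.

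Other secretory Rabs had 8 of 17 genes above the floor, 3 positive and 5 negative, with RAB2A furthest from 0 (159 and 198, -0.32). The other RAB2A probe set above the floor gave 0.03. Genes of granule biogenesis had 8 of 17 above the floor, 4 positive and 4 negative. SNAPIN, a subunit of the BLOC-1 complex that also binds SNAREs, was furthest from 0 at 62 and 80 (-0.37), and its neighbours on chromosome 1 had a median of -0.27. The medians of these 2 lists, -0.07 and -0.04, were close to the -0.05 of all genes compared.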

How the data were processed

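RNA of the CD2-positive and the CD2-negative HMC1 subclone was measured on 1 array each. Per the submitters' processing notes, the authors made each deposited intensity with RMA, using version 1.1 of Affymetrix Expression Console. Their linear scale and rounding to whole numbers were seen in the values. Which background correction was used is not stated in the sources at hand, and it would change low readings. Quantile normalisation, a step of RMA, removes any difference in total signal.

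Values were converted to log2 without an added constant. Of 54675 probe sets 41097 carried 1 gene symbol, 1801 several and 11777 none, and the last 2 kinds were left out. Symbols were updated through RefSeq. No probe set naming several genes named a member. The members, role groups, lists and floor were chosen with earlier results of these data known. All members are named; of each other list, genes above the floor past 1.5-fold are named, or else the one furthest from 0, and any further gene was picked with its value in view. Alternatives were floors of log2 5, 7 or none, the mean of all probe sets, plain identifiers (no _s, _x or _a), probe sets sharing a sign, centring on all probe sets or on the hybridisation controls, and a lowess correction (span 0.3). Subtracting the median of 20 or 10 neighbours each side was added after seeing the data. Python 3.11.15, pandas 2.3.3 and statsmodels 0.14.6 were used.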

Additional observations from a re-analysis of the deposited data

How the results depend on the processing

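With 1 array per subclone no replicate could be left out and no paired analysis was possible because each group held 1 sample. The members' median of -0.10 was 0.084 with the hybridisation controls set to 0, where the median of all compared genes was 0.14. It lay between -0.12 and -0.01 under the other alternatives. At a floor of log2 7 it was -0.038, against -0.042 over all compared genes. Over the mean of a gene's probe sets it was -0.011 against -0.022. In these 2 settings the members were thus not lower than all genes. The count of members at least 1.5-fold higher was 0 and became 1 without a floor (STX11) and 1 when centred on the hybridisation controls (STX4). The count at least 1.5-fold lower was 2 and became 1 at a floor of log2 7 and 1 over the mean of a gene's probe sets, since RAB27B was then below the floor, 1 with plain identifiers, which leave out the only probe set of VAMP7, and 1 with the lowess correction (RAB27B at -0.57). Without a floor it was 3, with CPLX2 at readings of 2 and 3. It became 0 when centred on the hybridisation controls and 0 after subtracting the median of 20 or of 10 neighbours each side. The count at least 2-fold different was 0 and became 1 without a floor (STX11). VAMP7 and RAB27B kept a negative sign under every alternative that gave them a value, and STX4 a positive one. Among the 20 members above the floor, centring on the hybridisation controls changed the sign of 6, the lowess correction that of 3, and the mean of all probe sets that of 2. Only 10 members were above a floor of log2 7, and 5 over the mean of a gene's probe sets. The shares of all genes past 1.5-fold or 2-fold were not counted under the alternatives.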
